A study of Homo sapiens with 6 samples.

Results

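Feedback inhibitors of the mitogen-activated protein kinase (MAPK) pathways were followed by RNA-seq in HEC-1-A, a cell line from a human adenocarcinoma of the endometrium. The members are 10 genes taken by name, 8 dual-specificity phosphatase genes (DUSP1, DUSP2, DUSP4, DUSP5, DUSP6, DUSP8, DUSP10 and DUSP16) and 2 Sprouty genes (SPRY2 and SPRY4), out of the 23228 genes in the count files, and all 10 had enough reads to be tested. Of the 6 libraries, 3 came from control cells and 3 from cells given SMIP34, a small-molecule inhibitor of the nucleolar scaffold protein PELP1, at 20 µM for 24 h. Both groups grew in McCoy's 5A medium with serum, and the methods state that controls received vehicle, which the labels do not mention. HEC-1-A is an established line, and no source states whether the 3 libraries of a group came from separate cultures, so p-values measure the spread between these libraries, which may be technical.

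MAPK pathways carry signals from growth factors and stress to the nucleus through the kinases ERK, JNK and p38. The DUSP proteins studied here remove the activating phosphates from these kinases, and many of their genes are switched on by the same pathways, so they close a negative feedback loop. DUSP1, DUSP2, DUSP4 and DUSP5 are nuclear, inducible enzymes, of which DUSP1 acts strongly on JNK and p38, DUSP2 and DUSP4 have broader targets including ERK, and DUSP5 is selective for ERK. DUSP8, DUSP10 and DUSP16 act mainly on JNK and p38. DUSP6 is the cytoplasmic ERK phosphatase, and Sprouty proteins restrain signaling between receptor tyrosine kinases and ERK. In carcinoma cells, transcripts of DUSP6, SPRY2 and SPRY4 are commonly read as output of the ERK pathway.

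The depth was similar in all libraries, with between 19562711 and 22014835 counts on genes, and the first principal component, with 44.8% of the variance, separated the groups. No library was a duplicate of another, since the chi-square per gene was at least 1.90 for every pair within a group. The epithelial markers EPCAM, KRT8, KRT18, KRT19, CDH1 and CLDN4 were all present, at 203 CPM (counts scaled to library size) or more, and their summed level lay between 3641 and 3767 CPM in control and between 3594 and 3629 CPM in SMIP34 libraries. At an adjusted p under 0.05 in edgeR's quasi-likelihood test, CLDN4 rose (log2 fold change 0.19) and KRT8 (-0.12) and KRT19 (-0.17) fell. In either direction 34.6% of all genes passed. Among leukocyte markers CD3E and MS4A1 were at 0 in all 6 libraries and PTPRC had 1 read in 1 library, while CD68 reached at most 1.77 CPM and CD14 0.504 CPM, and the 3 endothelial markers did not exceed 0.460 CPM in any library. Of 6 fibroblast and muscle markers, 3 were tested, with a summed level between 7.91 and 7.99 CPM in control and between 7.17 and 8.57 CPM in SMIP34 libraries, and LUM was at 0. One of these, COL1A1, had a log2 fold change of 0.50 from 2.96 CPM in control (edgeR quasi-likelihood adjusted p = 0.0151). The other tested markers of this list, ACTA2 and DES, had log2 fold changes of -0.37 (adjusted p = 0.0939) and -0.56 (adjusted p = 0.169). Neither passed. The part of other cell types in the results was not tested. PELP1 mRNA rose from 139 ± 6.5 CPM in control libraries to 156 ± 4.43 CPM in SMIP34 libraries (SD, n = 3 each). Its log2 fold change was 0.16 (edgeR quasi-likelihood adjusted p = 0.000746). This does not check the labels, since the compound acts on the protein.

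To show the regulatory sequence beside the values, the 250 bases before the annotated start were read from the hg19 genome for 3 members, DUSP1, which had the largest increase of the members, DUSP5, the most abundant, and DUSP6, the ERK phosphatase whose groups overlapped. Capitals mark matches to the motifs searched on both strands, the cAMP response element (TGACGTCA), its core (TGACG), the AP-1 site (TGACTCA), an ETS site (CACTTCCG), the kappa-B consensus and the CArG box of serum response elements. The windows are chr5:172198204-172198453 (minus strand) for DUSP1, chr10:112257375-112257624 (plus strand) for DUSP5 and chr12:89746297-89746546 (minus strand) for DUSP6, each printed 5′ to 3′ in the direction of transcription.
DUSP1: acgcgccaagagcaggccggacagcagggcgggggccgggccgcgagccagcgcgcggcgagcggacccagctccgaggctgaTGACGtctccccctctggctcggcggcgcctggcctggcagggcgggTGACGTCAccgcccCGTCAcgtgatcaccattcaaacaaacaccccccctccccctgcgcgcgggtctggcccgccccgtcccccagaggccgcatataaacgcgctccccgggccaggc
DUSP5: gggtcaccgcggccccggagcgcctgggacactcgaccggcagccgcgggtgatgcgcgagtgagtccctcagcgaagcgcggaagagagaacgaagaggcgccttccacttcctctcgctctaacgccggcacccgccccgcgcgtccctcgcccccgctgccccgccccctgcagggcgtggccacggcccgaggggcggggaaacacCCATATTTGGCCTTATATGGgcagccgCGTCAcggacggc
DUSP6: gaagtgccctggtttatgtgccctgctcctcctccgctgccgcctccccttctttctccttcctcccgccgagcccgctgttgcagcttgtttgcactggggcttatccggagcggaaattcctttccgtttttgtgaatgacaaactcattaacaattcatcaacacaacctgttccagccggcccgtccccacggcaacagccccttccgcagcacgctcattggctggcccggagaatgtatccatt

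In DUSP1 the whole cAMP response element stood 120 to 113 bases before the start, and 2 further copies of its core, separate from it, stood at 167 to 163 and at 106 to 102 bases. DUSP5 held adjacent CArG boxes at 40 to 31 and at 30 to 21 bases before the start and a core at 13 to 9 bases. The DUSP6 window held none of these letters. Over the 22677 genes with such a window, the whole element was found in 1.91%, its core in 22.4% (the whole element contains the core on both strands) and a CArG box in 1.15%. Of the 10 members, DUSP1 alone held the whole element, DUSP5 alone held a CArG box, and DUSP1, DUSP4, DUSP5 and DUSP16 held the core. AP-1, ETS and kappa-B letters, found in 3.18%, 3.17% and 7.70% of all windows, were in no member's window. A match describes the letters in this window and does not mark a bound site.

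DUSP5 was by far the most abundant member. Per kilobase (kb) of annotated exon, its level in control cells was 141 ± 2.09 CPM per kb (SD, n = 3), followed by SPRY2 at 18.8 ± 0.432, DUSP6 at 16.5 ± 0.445, SPRY4 at 12.4 ± 0.631 and DUSP1 at 8.20 ± 0.111 CPM per kb. DUSP16 stood at 4.92 ± 0.0516, DUSP10 at 2.96 ± 0.511, DUSP2 at 1.94 ± 0.171, DUSP4 at 1.14 ± 0.117 and DUSP8 at 1.07 ± 0.00333 CPM per kb (SD, n = 3). Control libraries of neighbours in this order did not overlap, except for DUSP4 and DUSP8. The summed level of the 10 members was 580 ± 9.39 CPM in control and 667 ± 6.27 CPM in SMIP34-treated cells, and DUSP5 made up 76.3% of that difference. Without DUSP5 the sum was 222 ± 4.60 CPM in control and 242 ± 3.72 CPM with SMIP34 (SD, n = 3 each). In bulk RNA, a change in the share of cells that express a gene and a change in the RNA per cell cannot be told apart.

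**Figure D1:**
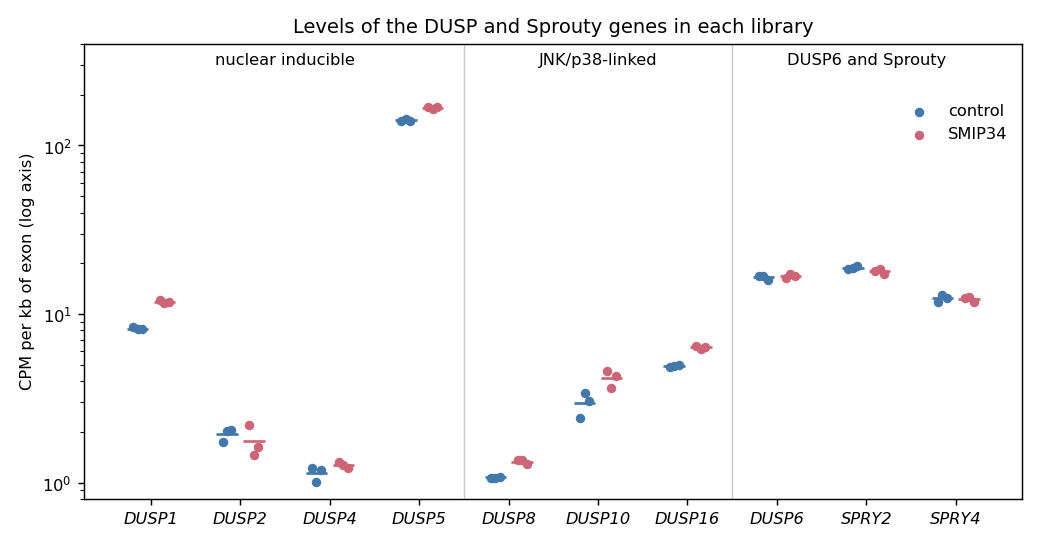
Level of each member in each of the 6 libraries, as CPM per kb of exon on a log axis, with control in blue, SMIP34 in red and a bar at each group's mean. DUSP5 lies above 140 CPM per kb in every library, and the groups are apart for DUSP1, DUSP5, DUSP8, DUSP10 and DUSP16.

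Of the 10 members, 4 rose with SMIP34 at an adjusted p under 0.05 in edgeR's quasi-likelihood test (DUSP1, DUSP5, DUSP10 and DUSP16), while 17.4% of the 13408 genes tested rose. None fell, against 17.2% of all genes, and no member was lower at an unadjusted p under 0.05 or with DESeq2 or limma voom. In either direction 34.6% of all genes passed, so that 4 of 10 is near the background as a count of changes. With an absolute log2 fold change over 0.5 as well, the threshold of the study's methods, 1 member (DUSP1) was left, against 3.31% of all genes. Groups did not overlap for 5 members, against 44.5% of all genes. The median log2 fold change was 0.21 over the members and -0.0022 over all genes.

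DUSP1, an immediate early gene whose enzyme dampens JNK and p38 (chromosome 5 of hg19, 172195093 to 172198203, minus strand, 4 exons), was at 16.8, 16.4 and 16.5 CPM in control replicates 1, 2 and 3 and at 24.4, 23.4 and 23.7 CPM in SMIP34 replicates 1, 2 and 3. All treated libraries lay above all controls, and replicates of one group were close together. It rose by 43.8%, or 0.52 in log2 fold change (standard error, SE, 0.066, 95% interval 0.39 to 0.66, edgeR quasi-likelihood adjusted p = 6.78e-07). DUSP1 ranked 271 among the 13408 genes when ordered from the largest log2 fold change downward. Leaving out each library in turn kept its log2 fold change between 0.51 and 0.54.

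DUSP5, the nuclear phosphatase selective for ERK (chromosome 10, 112257625 to 112271302, plus strand, 4 exons), was at 355, 364 and 355 CPM in control replicates 1, 2 and 3 and at 428, 418 and 427 CPM in SMIP34 replicates 1, 2 and 3. The groups were well apart, and at this depth of at least 6891 reads per library a small change could be measured. It rose by 18.6%, or 0.25 in log2 fold change (SE 0.026, 95% interval 0.19 to 0.30, edgeR quasi-likelihood adjusted p = 5.01e-08). Its pseudogene DUSP5P had between 3 and 14 reads, and the counts of DUSP5 were whole numbers in every library, while those of DUSP6, DUSP10, DUSP16 and SPRY2 held fractions in 1 or 2 libraries.

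DUSP4 and DUSP2, the other nuclear inducible enzymes, were of low abundance, and neither passed the test. DUSP4 (chromosome 8, 29190579 to 29208267, minus strand) was at 9.01, 7.40 and 8.71 CPM in control and at 9.75, 9.39 and 9.01 CPM in SMIP34 libraries. The highest control equalled the lowest treated library to the digits given, and the log2 fold change was 0.17 (95% interval -0.044 to 0.38, edgeR quasi-likelihood adjusted p = 0.220). DUSP2 (chromosome 2, 96808908 to 96811179, minus strand) was at 2.94, 3.40 and 3.46 CPM in control and at 3.69, 2.45 and 2.73 CPM in SMIP34 libraries, with SMIP34 replicate 1 above every control. Its log2 fold change of -0.15 had a 95% interval from -0.52 to 0.22 (adjusted p = 0.574). DUSP2 had 53 to 81 reads per library, so its interval was wide and held changes of either sign.

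Among the DUSPs that act on JNK and p38, DUSP16 (chromosome 12, 12626216 to 12715448, minus strand, 7 exons) was at 30.7, 31.2 and 31.3 CPM in control replicates 1, 2 and 3 and at 40.8, 39.0 and 40.1 CPM in SMIP34 replicates 1, 2 and 3. The spread within each group was small against the gap between them. DUSP16 rose by 28.7%, or 0.36 in log2 fold change (SE 0.051, 95% interval 0.26 to 0.47, edgeR quasi-likelihood adjusted p = 3.12e-06).

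DUSP10 (chromosome 1, 221874764 to 221915516, minus strand, 5 exons), a phosphatase of JNK and p38, was at 7.93, 11.3 and 10.0 CPM in control replicates 1, 2 and 3 and at 15.1, 11.98 and 14.1 CPM in SMIP34 replicates 1, 2 and 3. Its groups did not overlap, but control replicate 2 and SMIP34 replicate 2 were close to each other. DUSP10 rose by 40.3%, or 0.49 in log2 fold change (SE 0.11, 95% interval 0.27 to 0.71, edgeR quasi-likelihood adjusted p = 0.000868). The value moved with single libraries, from 0.37 to 0.61 when each was left out in turn, and it passed the fold threshold of 0.5 without control replicate 2 (0.61), control replicate 3 (0.51) or SMIP34 replicate 2 (0.58).

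DUSP8, also an enzyme for JNK and p38 (chromosome 11, 1575281 to 1593150, minus strand, 7 exons), was at 4.79, 4.78 and 4.81 CPM in control and at 6.06, 6.10 and 5.73 CPM in SMIP34 libraries. Its groups did not overlap, and its log2 fold change was 0.31 (SE 0.13, 95% interval 0.056 to 0.57), but the adjusted p of 0.0537 from edgeR's quasi-likelihood test did not pass. With scaling by library size only, the adjusted p was 0.0406. DUSP8 passed in no other setting, with 0.181 in DESeq2 and 0.0696 to 0.128 in edgeR when each library was left out. The counts were low, from 93 to 133 reads per library.

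DUSP6, SPRY2 and SPRY4, linked to ERK like DUSP5, had smaller fold changes than DUSP5. DUSP6 (chromosome 12, 89741837 to 89746296, minus strand, 3 exons) was at 47.4, 47.1 and 45.1 CPM in control replicates 1, 2 and 3 and at 46.2, 48.8 and 47.6 CPM in SMIP34 replicates 1, 2 and 3. The groups overlapped, and the log2 fold change was 0.031 (SE 0.046, 95% interval -0.063 to 0.12, edgeR quasi-likelihood adjusted p = 0.651).

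SPRY2 (chromosome 13, 80910112 to 80915086, minus strand, 2 exons), whose protein inhibits growth factor signaling upstream of ERK, was at 38.8, 39.7 and 40.6 CPM in control and at 38.05, 39.1 and 36.6 CPM in SMIP34 libraries. Its log2 fold change of -0.067 had a 95% interval from -0.17 to 0.035 (edgeR quasi-likelihood adjusted p = 0.319). The related SPRY4 (chromosome 5, 141689992 to 141704620, minus strand, 3 exons) was at 58.7, 65.0 and 61.8 CPM in control and at 61.8, 62.8 and 58.9 CPM in SMIP34 libraries. Treated libraries of SPRY4 lay within the range of the controls, with a log2 fold change of -0.017 (95% interval -0.11 to 0.074, adjusted p = 0.807), whose sign turned with scaling by library size only and without control replicate 2 or SMIP34 replicate 3. For these 3 genes the intervals leave out a rise as large as the 0.52 of DUSP1, with the nearest bound at 0.12.

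**Figure D2:**
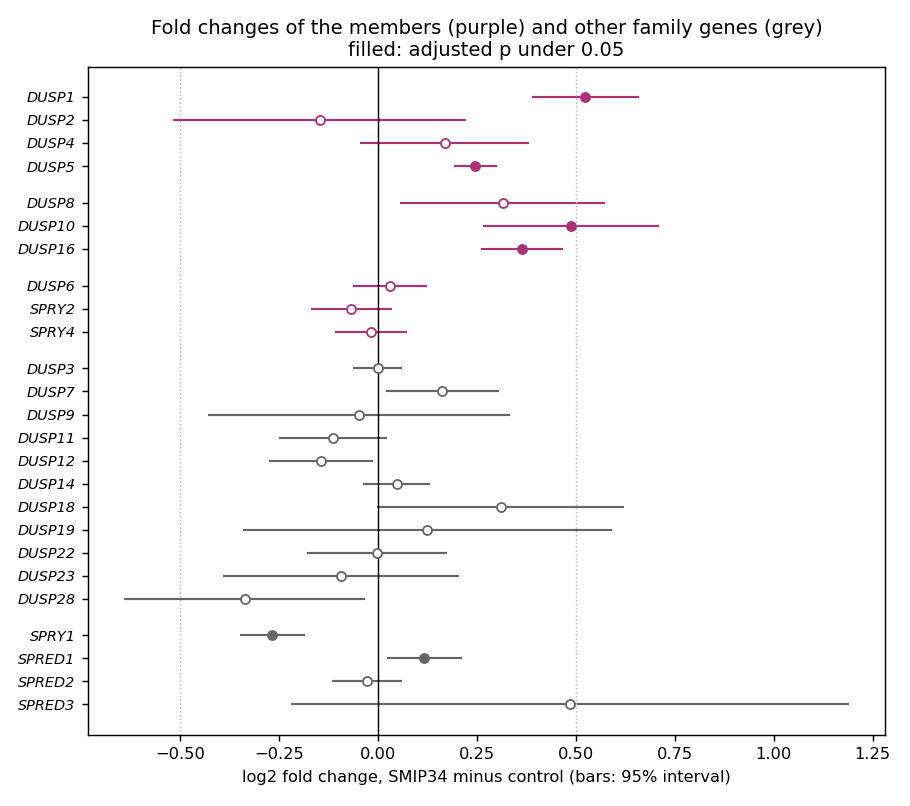
Log2 fold change (SMIP34 minus control) with its 95% interval from the fit over 13408 genes for the 10 members (purple, in 3 groups by role) and for the tested genes of the lists of other DUSP, Sprouty and SPRED genes (grey), which do not hold DUSP13 and DUSP27. Filled points passed an adjusted p under 0.05, and among the genes drawn these are DUSP1, DUSP5, DUSP10, DUSP16, SPRY1 and SPRED1. Dotted lines mark the fold threshold of 0.5 in each direction.

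The genes were also set against each other by role. Relative to the control mean of each gene, the mean log2 CPM of DUSP8, DUSP10 and DUSP16 stood at 0.46, 0.33 and 0.39 in SMIP34 replicates 1, 2 and 3, with controls at -0.099, 0.075 and 0.024. For DUSP1, DUSP2, DUSP4 and DUSP5 it stood at 0.30, 0.12 and 0.16 in the treated libraries, with controls between -0.025 and 0.032. DUSP6, SPRY2 and SPRY4 together stood at -0.024, 0.024 and -0.050 in the treated libraries, and their controls ran from -0.027 to 0.031. The mean of the 7 other DUSP genes minus that of DUSP6 and the Sprouty genes was 0.39, 0.19 and 0.31 in SMIP34 replicates 1, 2 and 3, and -0.019, -0.013 and 0.032 in control replicates 1, 2 and 3.

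The division into roles is not clean, because DUSP5 is nuclear but selective for ERK. With DUSP5 placed beside DUSP6 and the Sprouty genes, 3 of the 6 genes that act on JNK or p38 rose (DUSP1, DUSP10 and DUSP16) and 1 of the 4 that act on ERK or its activation rose (DUSP5), against 17.4% of all genes. The difference between these counts was not tested. The difference between the mean log2 changes of the divisions was 0.23, against 0.30 in the first division. The genes were chosen with earlier results of these libraries known, so these differences carry no p.

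**Figure D3:**
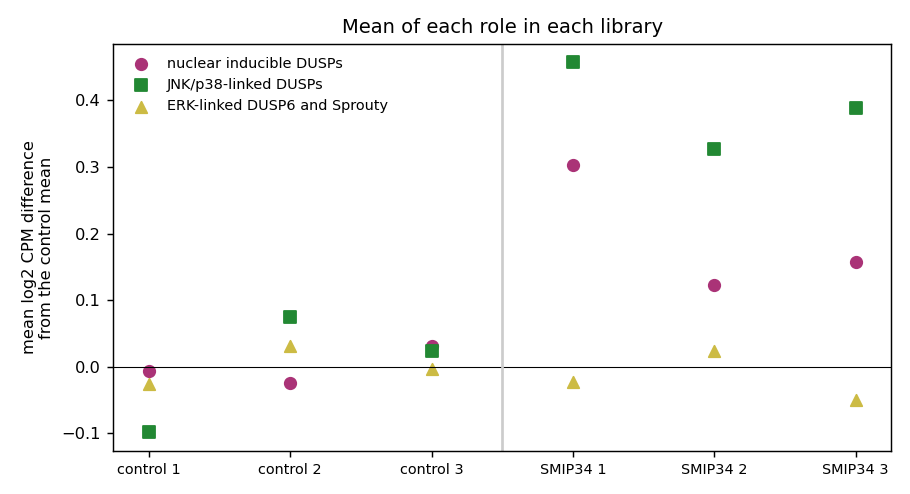
Mean difference of log2 CPM from the control mean in each library, for the nuclear inducible DUSP genes (circles), the DUSP genes linked to JNK and p38 (squares), and DUSP6 with the Sprouty genes (triangles). Squares reach 0.33 to 0.46 in the SMIP34 libraries, while triangles stay between -0.050 and 0.031 in all 6.

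Within a library, ratios between genes do not depend on how libraries are scaled. Per kb of exon, the level of DUSP1 was 0.495, 0.486 and 0.510 of that of DUSP6 in control replicates 1, 2 and 3 and 0.737, 0.668 and 0.694 of it in SMIP34 replicates 1, 2 and 3. The log2 fold change of DUSP1 exceeded that of DUSP6 by 0.49 (SE 0.080, with the errors of both genes taken as independent). The ratio of DUSP5 to DUSP6 went from between 8.36 and 8.77 in control to between 9.57 and 10.3 in SMIP34 libraries, a difference in log2 fold change of 0.22 (SE 0.053). DUSP16 and DUSP10 exceeded DUSP6 by 0.33 (SE 0.068) and 0.46 (SE 0.12) in log2 fold change. The groups did not overlap in any of these 4 ratios. The 4 genes were those already called higher and DUSP6 was not called, so the ratios restate those calls and carry no p.

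**Figure D4:**
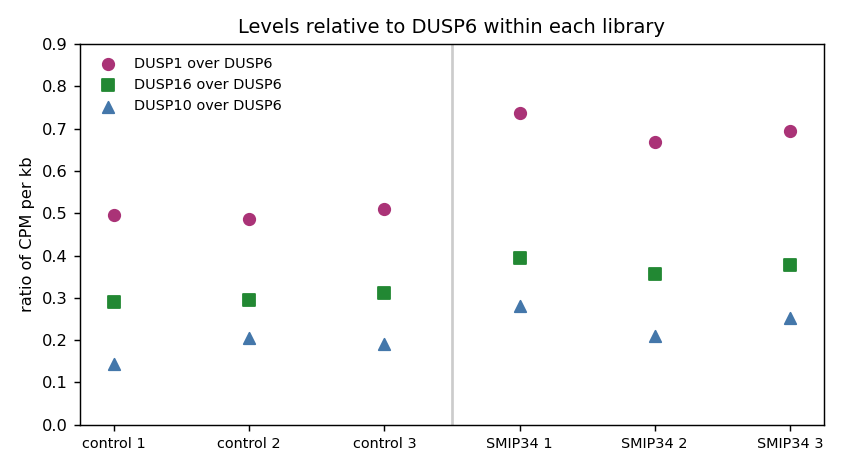
Ratio of the level (CPM per kb of exon) of DUSP1, DUSP16 and DUSP10 to that of DUSP6 in each library, on an axis that starts at 0. The ratio for DUSP1 lies between 0.486 and 0.510 in the controls and between 0.668 and 0.737 with SMIP34, and that for DUSP10 is 0.205 in control 2 and 0.210 in SMIP34 2.

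Other genes of the phosphatase family were measured as well. Of 13 other dual-specificity phosphatase genes in a list of the family, 11 were tested. None passed an adjusted p under 0.05 in edgeR's quasi-likelihood test, against 34.6% of all genes in either direction, nor in DESeq2 or limma voom. At an unadjusted p under 0.05 there were 3, with DUSP7 higher and DUSP12 and DUSP28 lower. DUSP7, a cytoplasmic ERK phosphatase closely related to DUSP6, had 0.16 in log2 fold change (SE 0.069, adjusted p = 0.0719), and DUSP14 one of 0.048 (adjusted p = 0.399). DUSP7 passed with scaling by library size only and DUSP14 with gene length offsets. Over the 11 genes the median log2 fold change was -0.0013, and its sign turned in 4 settings, these included. Outside that list, and chosen after their values were seen, DUSP27 fell, with -0.46 in log2 fold change (edgeR quasi-likelihood adjusted p = 0.0311). That call was lost in DESeq2 (adjusted p = 0.123) and without control replicate 2 or 3 or SMIP34 replicate 2 or 3. DUSP13 had -0.47 in log2 fold change (adjusted p = 0.123) and did not pass.

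Among the other Sprouty genes and the related SPRED genes, which block the activation of RAF by RAS, 4 of 5 were tested. Of these, 1 was higher and 1 lower, against 34.6% of all genes in either direction. SPRY1, which stood at 34.7 CPM per kb in control cells against 18.8 for SPRY2, fell from 90.9 ± 3.36 CPM to 75.6 ± 2.94 CPM (SD, n = 3 each), or -0.27 in log2 fold change (SE 0.040, edgeR quasi-likelihood adjusted p = 8.28e-06). It stayed between -0.29 and -0.24 when each library was left out. SPRED1 had a log2 fold change of 0.12 with an adjusted p of 0.0464, and its groups overlapped. That call was lost in 7 of the 11 other settings (adjusted p up to 0.585) and without control replicate 1 or 2 or SMIP34 replicate 1 or 2. Values for SPRED2 (-0.027) and SPRED3 (0.48, at 0.669 CPM on average in control) did not pass.

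The kinases that the members act on were measured from lists of each cascade. Of 21 genes from the RAS-ERK cascade, 6 rose and 1 fell in edgeR's quasi-likelihood test, with a median log2 fold change of 0.039, and these 7 of 21 are near the 34.6% of all genes that passed in either direction. RPS6KA3, a kinase activated by ERK, rose by 0.24 on the log2 scale (adjusted p = 0.000207). MAPK3, which encodes ERK1, was the gene that fell, from 112 ± 4.85 to 95.9 ± 2.98 CPM, or -0.22 in log2 fold change (SE 0.038, adjusted p = 3.70e-05).

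In the JNK cascade, 6 of 14 genes rose, against 17.4% of all genes, and none fell, against 17.2%. At an unadjusted p under 0.05 and in limma voom 1 was lower, while DESeq2 gave 4 higher and none lower. Over all settings between 4 and 6 genes were higher and at most 1 was lower. The steepest increases with at least 1 CPM were those of the JNK scaffold genes SPAG9 (from 159 ± 6.92 to 203 ± 3.23 CPM, log2 fold change 0.35, adjusted p = 3.51e-09) and MAPK8IP3 (log2 fold change 0.25, adjusted p = 0.00142). With gene length offsets, SPAG9 and MAPK8IP3 had smaller log2 fold changes of 0.25 and 0.20. In the p38 cascade, 1 of 11 genes rose and 2 fell, no larger a share than the 34.6% of all genes, with a median of -0.011 whose sign turned with scaling by library size only, with gene length offsets and without control replicate 1, control replicate 3 or SMIP34 replicate 2. MAP2K3, which activates p38, rose from 149 ± 1.85 to 177 ± 1.15 CPM (log2 fold change 0.25, adjusted p = 3.02e-07), while MAPKAPK3, a kinase downstream of p38, fell from 460 ± 4.61 to 389 ± 1.31 CPM (log2 fold change -0.24, adjusted p = 4.01e-08). MAP2K6, another activator of p38, fell by 0.20 on the log2 scale (adjusted p = 0.0252), a call lost in DESeq2 (0.103), with gene length offsets (0.0939) and without control replicate 2 or 3 or SMIP34 replicate 1 or 3 (0.0569 to 0.156).

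Other transcripts that the ERK pathway commonly induces included several that rose. Of 12 such genes in a list, 11 were tested and 6 rose, against 17.4% of all genes. None fell, against 17.2%, and none was lower at an unadjusted p under 0.05, in DESeq2 or in limma voom. The median log2 fold change was 0.12. PLAUR, the urokinase receptor gene, rose from 22.9 ± 1.94 to 33.9 ± 1.34 CPM (log2 fold change 0.56, adjusted p = 1.02e-07), and FOSL1, which encodes the AP-1 subunit FRA1, from 85.5 ± 1.76 to 123 ± 3.79 CPM (log2 fold change 0.52, adjusted p = 8.94e-12). Chosen after their values were seen, the ETS factor genes ETV4 and ETV5 had log2 fold changes of 0.031 (adjusted p = 0.569) and 0.059 (adjusted p = 0.171), and MYC one of 0.00048 (adjusted p = 0.992).

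Of 12 immediate early transcription factor genes, which are induced together with DUSP1 in many settings, 11 were tested. In edgeR's quasi-likelihood test, 8 rose, against 17.4% of all genes, and none fell, against 17.2%. The counts were the same in DESeq2, in limma voom and at an unadjusted p under 0.05. FOSB, a subunit of AP-1, had the largest increase of the list, from 1.90 ± 0.268 to 16.3 ± 1.44 CPM (log2 fold change 3.09), followed by the stress-induced ATF3, from 7.82 ± 0.814 to 25.1 ± 1.30 CPM (log2 fold change 1.68). The list's median was 0.44. Of 5 genes for factors that control mRNA decay, 4 rose, against 17.4% of all genes, and none fell, against 17.2%. The count was the same in DESeq2 and limma voom and was 3 with gene length offsets, with none lower at an unadjusted p under 0.05. ZFP36, whose protein destabilizes mRNAs with AU-rich elements, rose from 25.7 ± 1.19 to 46.4 ± 4.54 CPM (log2 fold change 0.85, adjusted p = 4.82e-11), and ZFP36L1 had a log2 fold change of 0.17 (adjusted p = 2.39e-05).

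**Figure D5:**
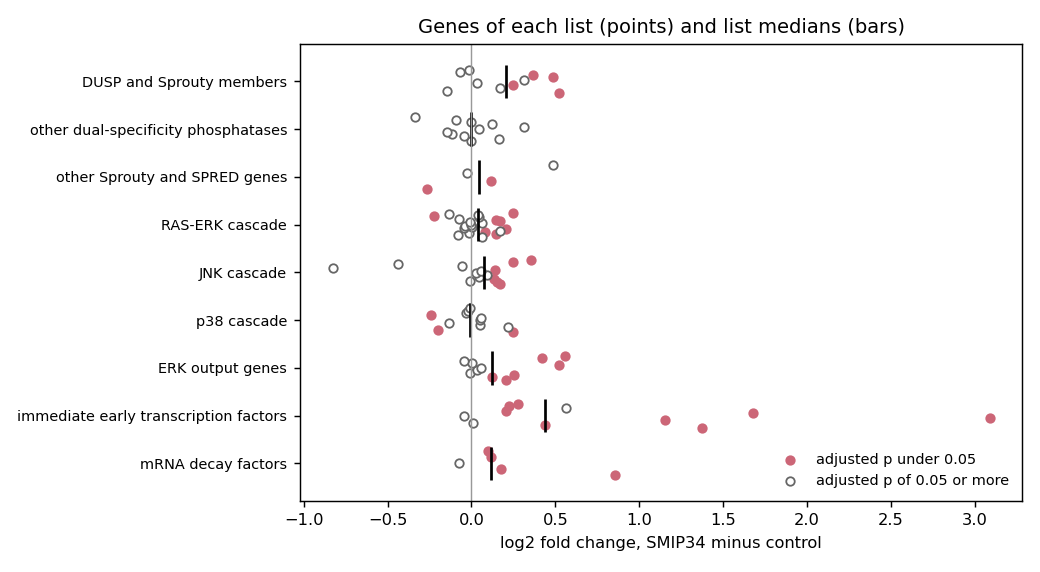
Log2 fold change (SMIP34 minus control) of every tested gene in the member list and in 8 lists of related genes, with a bar at each list's median. Red points passed an adjusted p under 0.05 in edgeR's quasi-likelihood test, and the list medians run from -0.011 (p38 cascade) to 0.44 (immediate early transcription factors).

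The genes most like DUSP1 over the 6 libraries, by Pearson's r of log2 CPM among 9903 genes with at least 10 CPM on average, were REXO4 (r = 0.999), IFIH1 (r = 0.998) and SEC24A (r = 0.998), with log2 fold changes of 0.18, 0.40 and 0.51. For DUSP6 they were C6orf1 (r = 0.972), TOM1 (r = 0.968) and RRN3 (r = 0.967), with log2 fold changes between 0.021 and 0.064. All points share the same 6 libraries in 2 groups, so a gene that differs between the groups correlates with any other that does. For DUSP6, whose groups overlapped, the genes named are the highest of 9903 correlations over only 6 libraries. Whether such values exceed those of unrelated genes was not tested.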

How the data were processed

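RNA of 3 control and 3 SMIP34-treated libraries (20 µM, 24 h) was sequenced, and samples were grouped by their titles. The authors deposited estimated counts, not normalized: per the file headers, featureCounts 1.5.0-p1 summed reads over exons of the UCSC hg19 genes by strand, at a mapping quality of at least 2, dividing reads with several places into fractions. The submitters' processing notes name HISAT2 and featureCounts, and the methods tophat2, HTSeq and DESeq2. The labels name library kits of different makers.

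Counts were rounded, low genes removed with filterByExpr, and 13408 genes scaled by TMM and tested with edgeR 4.0.16 (quasi-likelihood, newer method set explicitly) in R 4.3.3. P-values were adjusted over all of these genes by the Benjamini-Hochberg method. CPM were scaled by TMM, and log2 CPM had a prior count of 2. Fold changes were not shrunk. The procedure was tested on simulated data. The genes and lists were chosen with earlier results of these data known. All members were named, as were, per list, the 2 largest increases and decreases that passed with at least 1 CPM, except 1 gene that is not reported here. Alternatives were DESeq2 1.42.0, limma 3.58.1 (voom), other scalings and filters, the legacy method, rounding down, gene length offsets (loess, span 0.3), a replicate block, and leaving out each library. Promoter windows were read from GRCh37, the build of hg19. Figures were drawn with matplotlib 3.10.9.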

Additional observations from a re-analysis of the deposited data

How the results depend on the processing

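The 4 members that rose in edgeR's quasi-likelihood test (DUSP1, DUSP5, DUSP10 and DUSP16) kept their direction and an adjusted p under 0.05 in all 11 other settings and with each library left out, and no member was lower in any of them. The count of members higher was 4 in each, except 5 with scaling by library size only, where DUSP8 also passed. The number past the fold threshold as well was 2 with scaling by library size only, where DUSP10 joined DUSP1, and between 1 and 2 when each library was left out. Over all genes, 281 passed both thresholds in DESeq2 against 444 in edgeR, and the cause was not tested. The count lay between 389 and 448 with 1 library left out. The log2 fold change of SPRY4, not called in any setting, was 0.0019 with scaling by library size only and ran from -0.050 to 0.023 with libraries left out. That of TOM1 ran from -0.0022 to 0.049. With gene length offsets DUSP1, DUSP5, DUSP10 and DUSP16 had log2 fold changes of 0.57, 0.27, 0.48 and 0.30. With the replicate number as a block, 4 members were higher and 1 passed both thresholds, while SPRED1 lost its call. For control and SMIP34 libraries with the same number, the correlation of their deviations from the group means was -0.028, 0.033 and -0.011. Whether such libraries were handled together is not stated and was not tested. Depth limits DUSP2 and DUSP8 most, with at most 133 reads per library.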

Other observations

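Of the dual-specificity phosphatase genes outside the lists, chosen after their values were seen, DUSP27 averaged 3.98 ± 0.577 CPM in control libraries and 2.90 ± 0.255 CPM in SMIP34 libraries (SD, n = 3 each). With 1 library left out, its adjusted p in edgeR's quasi-likelihood test reached 0.167. DUSP13 averaged 2.25 ± 0.604 CPM in control libraries and 1.64 ± 0.345 CPM with SMIP34, and DUSP21 had no read in any library.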
